A study of Saccharomyces cerevisiae with 6 samples.

Results

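The cytosolic ribosomal protein genes of budding yeast were taken by their names from 7126 features: every gene called RPL or RPS with a number and an optional A or B, and the stalk genes RPP0, RPP1A, RPP1B, RPP2A and RPP2B. This gave 137 genes, 81 of the large and 56 of the small ribosomal subunit, all of which passed the filter on low values. They code for 78 protein families, of which 59 are made from an A and a B copy and 19 from a single gene. In 21 of the pairs both copies encode the same protein. Polyadenylated RNA was sequenced from 3 strains grown in YPD, a rich glucose medium, with 2 libraries per strain, and the study by its title is about adaptive aneuploidy where thiol peroxidases are missing. The wild type (Wt-M11, described as having a single chromosome XI) was MAT a, GAL and [phi+], with the alleles can1-100, trp1-1, his3-11,15, ura3, ade2-1 and leu2-3, and carried HIS3 and KanMX6 in the intergenic region chrXI:430900-431000 beside YKL006W, which is RPL14A. D8A and D8B share 1 listed genotype: MATa his3 leu2 met15 ura3 with TSA1, TSA2, DOT5, AHP1, PRX1, GPX1, GPX2 and GPX3, which code for the thiol peroxidases, and the sulfiredoxin gene SRX1 replaced by markers. All 3 were labelled S288c, though the listed alleles differ, and other differences of background are not known. Because the wild type differs from both null strains in the insertion and in several auxotrophic markers as well as in the peroxidases, these differences cannot be told apart in any comparison with it. The same holds for any difference in chromosome number, which the title and the label of the wild type raise. The labels do not say that the libraries of a strain came from separate cultures, and a p-value here reflects no more than library-to-library spread, which may be technical.

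Ribosomal proteins assemble with ribosomal RNA into a large subunit, which joins amino acids, and a small subunit, which decodes the message. In growing yeast their mRNAs are among the most abundant, and their genes are switched on and off as a group by Rap1, Fhl1, Ifh1 and Sfp1 in response to nutrients and stress through the TOR and protein kinase A pathways. Most are duplicated since an ancient doubling of the genome, and many carry an intron, which is rare among yeast genes.

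The depth behind the values was 9.15 and 10.1 M fragments for wild type, 4.02 and 8.05 M for D8A and 14.1 and 10.6 M for D8B. By this estimate a gene of the group had between 37.0 fragments (RPL22A in D8A replicate 1) and 51197 (RPL3 in D8B replicate 1), so counting error was small for nearly all of them. The libraries labelled null held at most 4.92% of the wild-type FPKM of TSA1, TSA2, DOT5, AHP1, PRX1, GPX1, GPX2 and GPX3. SRX1 went against its label, with 52.8 and 76.8 FPKM in wild type and 319 to 654 in the null libraries. D8A replicate 1 was the shallowest library and had 258 features listed at 0, against 108 to 140 in the others. Replicates differed by a median over all tested features of 0.20 in wild type, 0.33 in D8A and 0.27 in D8B on the log2 scale.

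Upstream sequence is shown for 3 of the pairs whose A-to-B ratio differed between strains, as their copies did not follow each other. RPS10, RPS9 and RPL4, whose ratios also differed, are not shown. The windows run from 500 to 201 bases before the coding start, 5′ to 3′ on the coding strand, and were read from the RefSeq genome of build R64. Capitals mark matches to the core of the Rap1 site, ACCCNNACA, searched on both strands. RPL14A lies at chrXI:431406-431705 (plus strand), RPL14B at chrVIII:103777-104076 (plus), RPL8A at chrVIII:36226-36525 (minus), RPL8B at chrXII:48830-49129 (minus), RPL22A at chrXII:262694-262993 (plus) and RPL22B at chrVI:65133-65432 (minus). The last line gives the interval named for the insertion in the wild type, chrXI:430900-431000 (plus strand), where no match was found.
RPL14A: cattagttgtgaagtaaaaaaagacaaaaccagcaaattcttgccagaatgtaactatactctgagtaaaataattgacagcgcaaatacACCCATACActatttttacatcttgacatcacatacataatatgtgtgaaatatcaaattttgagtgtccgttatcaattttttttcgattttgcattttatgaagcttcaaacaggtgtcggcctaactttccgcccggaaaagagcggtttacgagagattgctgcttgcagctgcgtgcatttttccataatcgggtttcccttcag
RPL14B: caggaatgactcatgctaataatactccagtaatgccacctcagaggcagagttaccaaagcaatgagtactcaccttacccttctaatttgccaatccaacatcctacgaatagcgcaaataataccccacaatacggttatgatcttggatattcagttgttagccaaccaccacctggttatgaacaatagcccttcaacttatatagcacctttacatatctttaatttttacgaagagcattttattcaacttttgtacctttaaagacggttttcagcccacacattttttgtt
RPL8A: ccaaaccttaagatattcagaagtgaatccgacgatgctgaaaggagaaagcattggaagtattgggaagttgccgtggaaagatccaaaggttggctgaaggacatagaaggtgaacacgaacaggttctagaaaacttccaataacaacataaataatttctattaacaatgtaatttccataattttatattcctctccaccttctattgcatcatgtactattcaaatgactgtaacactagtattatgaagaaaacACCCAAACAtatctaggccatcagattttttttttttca
RPL8B: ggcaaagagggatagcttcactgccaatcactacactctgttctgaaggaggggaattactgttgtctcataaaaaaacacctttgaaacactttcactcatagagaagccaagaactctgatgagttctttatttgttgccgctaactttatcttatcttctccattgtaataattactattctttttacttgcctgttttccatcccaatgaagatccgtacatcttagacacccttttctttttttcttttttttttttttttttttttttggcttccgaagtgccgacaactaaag
RPL22A: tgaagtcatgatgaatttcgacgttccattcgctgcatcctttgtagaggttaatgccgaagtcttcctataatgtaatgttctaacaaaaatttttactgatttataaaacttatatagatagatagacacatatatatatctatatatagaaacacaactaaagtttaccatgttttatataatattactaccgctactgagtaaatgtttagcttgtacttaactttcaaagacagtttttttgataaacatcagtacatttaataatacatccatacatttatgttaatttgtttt
RPL22B: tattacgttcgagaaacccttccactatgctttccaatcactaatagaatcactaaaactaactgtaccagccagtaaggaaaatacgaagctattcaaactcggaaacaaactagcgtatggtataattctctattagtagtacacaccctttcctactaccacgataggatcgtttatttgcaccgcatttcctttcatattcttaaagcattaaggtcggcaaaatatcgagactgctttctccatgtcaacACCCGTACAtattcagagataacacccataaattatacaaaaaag
wild-type insertion site: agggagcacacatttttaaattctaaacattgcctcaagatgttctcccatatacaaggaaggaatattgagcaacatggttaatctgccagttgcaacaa

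In all 3 pairs exactly 1 copy held a match to this core. It lay 410 to 402 bases before the start of RPL14A, 239 to 231 before RPL8A and 245 to 237 before RPL22B. Rap1 sites that depart from the core were not searched, so a window without a match may still hold a site. Relative to the other copy, the copy with the match stood higher than in wild type in both null strains for RPL14 and RPL8. For RPL22 it stood lower in D8B and near wild type in D8A. Matches for RPS10, RPS9 and RPL4 are not given, so no pattern can be read from these 3 chosen pairs. Whether the matches have a part in the ratios was not tested. In the full 500 bases before the coding start, this core was found for 54 of the 137 ribosomal protein genes (39.4%) and for 328 of 6006 coding genes (5.46%). A longer form, the same core with a further C in front, was found for 21.2% and 2.21%. GACGCA, a site for Fhl1, was present in 15.3% of the windows of these genes and in 11.0% of all, and the core of the Abf1 site, CGT and GA with 7 bases of any kind between them, in 42.3% and 46.1%. The 54 genes with the Rap1 core and the 83 without it had medians close to each other in D8A against wild type (-0.47 and -0.45), in D8B against wild type (-0.07 and -0.05) and in D8B against D8A (0.42 and 0.41). These are log2 differences from the fit described next.

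As a group, the ribosomal protein mRNAs stood lower in D8A than in wild type and close to wild type in D8B, but no single gene passed the test. The median gene had 3633 and 2933 FPKM in wild type against 2034 and 2739 in D8A and 3780 and 2612 in D8B. FPKM count fragments over the length of a feature and over the depth of the library, so they are shares of a library. The amount of RNA per cell was not measured, and fewer cells with a transcript and less of it per cell cannot be told apart. Both D8A libraries were below both wild-type libraries in this median, while the D8B libraries lay on either side of them. The spread within a strain was of the same order: D8B replicate 1 had the highest value of 108 genes and wild-type replicate 1 of the other 29, and D8A replicate 1 had the lowest value of all 137.

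**Figure D1:**
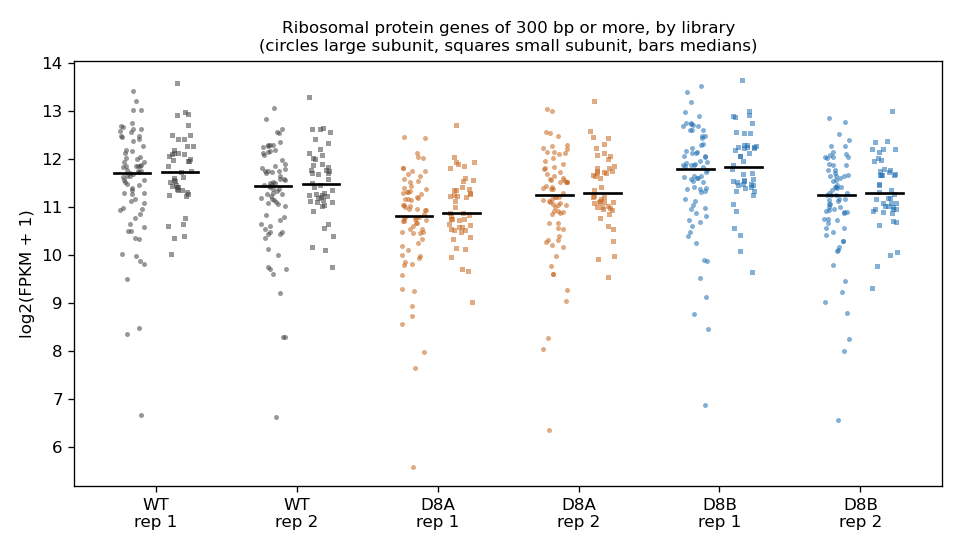
Level of each ribosomal protein gene of 300 bp or more (y axis, log2(FPKM + 1)) in each of the 6 libraries, with circles for the large and squares for the small subunit and a bar at each median. The bars are lowest in D8A replicate 1, and the bars of both subunits lie close together in every library.

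Of the 137 genes, 137 were lower on average in D8A than in wild type, where 3507 of all 6925 features tested were. Because the genes moved together by library, 137 of 137 does not stand for 137 separate observations. The genes had a median log2 difference of -0.46, against -0.01 over all features. None passed limma at an adjusted p under 0.05, where 5.05% of all features did (1.23% higher and 3.83% lower). At an unadjusted p under 0.05 there were 4 (RPL22B, RPL22A, RPS28B and RPS10B), where the share of all features was 18.0%. The 2 D8A libraries were both below the 2 wild-type libraries for 119 of the 137 genes (86.9%), where 26.1% of all features were placed that way, and none was above, against 25.3%. As D8A replicate 1 was the lowest library for every gene, this count rests on D8A replicate 2 and could not change without replicate 1 (28.7% of all features). Without D8A replicate 1 the median difference was -0.24, and with quantile normalization it was -0.13. In the share of all fragments, the group held 17.6% and 14.9% in wild type against 12.1% and 14.2% in D8A and 18.0% and 12.9% in D8B.

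In D8B against wild type, a comparison that shares the wild-type libraries with the one above, the genes were spread around no difference. The median was -0.05, against 0.06 over all features. Of the genes, 93 were lower and 44 higher, where 3064 and 3861 of 6925 features were. No gene passed limma, where 4.9% of all features did (1.21% higher and 3.68% lower), and only RPL22B had an unadjusted p under 0.05 (19.0% of all features). Both D8B libraries were above both wild-type libraries for RPL4A and RPS0B (30.0% of all features) and below them for RPL22B, RPS28B, RPS22B, RPS10B and RPS9A (25.9%). The median rested on single libraries: it was -0.32 without D8B replicate 1, 0.21 without D8B replicate 2, -0.19 without wild-type replicate 2 and 0.06 without wild-type replicate 1.

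Between the null strains, 136 of the 137 genes were higher on average in D8B than in D8A, where 4056 of all 6925 features were. The exception was RPL22B. The median log2 difference was 0.41 (0.07 over all features). As the genes moved together by library, they are not separate observations. The median gene was lower in D8B replicate 2 (2612 FPKM) than in D8A replicate 2 (2739 FPKM). No gene passed limma, where 0.332% of all features did (0.217% higher and 0.116% lower), and RPL4A and RPL22A had an unadjusted p under 0.05 (9.18%). The D8B libraries were both above the D8A libraries for 34 genes (24.8%), where 19.7% of all features were placed that way, and below for none (15.1%). This count, too, rests on D8A replicate 2 and could not change without replicate 1 (22.8% of all features). The median was 0.20 without D8A replicate 1, 0.64 without D8A replicate 2, 0.15 without D8B replicate 1, 0.70 without D8B replicate 2 and 0.092 with quantile normalization.

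Most of this spread was common to the whole group. A gene ranged over the 6 libraries by a median of 0.94 on the log2 scale, more than the median of 0.76 for features outside the group. After the library's median ribosomal protein gene was subtracted, the range was 0.21. For 132 of the 137 genes it was then below 0.5. The 5 others were RPL22B, RPS28B, RPL22A, RPL4A and RPS0B, named here after their values were seen, and they are described one by one further on. The shared movement is not shown to be particular to the group. For example, the initiation factor gene TIF11 gave 519 FPKM in D8A replicate 1 and 970 in D8B replicate 1. The elongation factor gene YEF3 went the other way, with 1212 and 848. Genes of the group under 300 bp differed more in D8A (-0.56) than longer ones (-0.44). A link to transcript length was not tested.

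The large and the small subunit did not separate. The median log2 difference from wild type was -0.44 for the 81 large-subunit genes and -0.48 for the 56 small-subunit genes in D8A, and -0.03 and -0.07 in D8B. Between D8B and D8A it was 0.42 and 0.40. The fragments of the large-subunit genes summed to 1.38 to 1.43 times those of the small subunit in all 6 libraries. RPL3, which reaches into the peptidyl transferase centre of the large subunit, gave 3674 and 3423 FPKM in wild type against 2487 and 2944 in D8A and 3756 and 3202 in D8B. RPS3, at the entry of the mRNA channel of the small subunit, gave 4933 and 4073 FPKM in wild type against 2735 and 3604 in D8A and 4987 and 3432 in D8B. Both were lowest in D8A replicate 1 and highest in D8B replicate 1.

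The stalk, which recruits elongation factors to the large subunit, consists of RPP0 and the acidic proteins of the other 4 RPP genes. Its base, RPP0, gave 3366 and 3421 FPKM in wild type against 2371 and 2938 in D8A and 3780.2 and 3189 in D8B. The acidic protein gene RPP1A gave 5664 and 4535 FPKM in wild type against 3271 and 4445 in D8A and 6229 and 4349 in D8B, and RPP1B gave 5253 and 4416 FPKM in wild type against 2539 and 3802 in D8A and 5643 and 3741 in D8B. RPP2A, the other kind of acidic stalk protein, gave 6077 and 4884 FPKM in wild type against 3209 and 4487 in D8A and 6888 and 4194 in D8B. RPP2B gave 5431 and 4669.8 FPKM in wild type against 2981 and 4164 in D8A and 6163 and 4223 in D8B. All 5 had D8A libraries below the wild-type libraries, as did 86.9% of the whole group and 26.1% of all features. Their median log2 difference was -0.52 in D8A and 0.02 in D8B, near the -0.46 and -0.05 of the whole group.

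Other divisions of the group gave medians close to each other as well. In D8A against wild type the median log2 difference was -0.47 for the 89 genes with an intron and -0.44 for the 48 without. It was -0.45 for the 19 single-copy genes, -0.45 for the A copies and -0.47 for the B copies. The 19 genes under 300 bp had -0.56, and the 118 longer ones -0.44. In D8B the same 7 groups lay between -0.16 (genes under 300 bp) and -0.02 (A copies).

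In level, genes of 300 bp or more with no other feature on their sequence ranged from 329 to 9881 FPKM as a mean over the 6 libraries, with a median of 2917. The highest was RPS31 (YLR167W, chrXII:498947-499405), which codes for ubiquitin fused to a small-subunit protein, with 12265 and 10009 FPKM in wild type against 6648 and 9474 in D8A and 12736 and 8155 in D8B. RPL30, whose protein is known to hold back the splicing of its own transcript, averaged 8507 FPKM, RPL14A 8227, the ubiquitin fusion gene RPL40B 6654 and RPS17A 6275. RPS31 had the highest mean of these 5 in each strain, and its libraries overlapped with those of wild type in D8B and not in D8A. Single-copy genes stood near the sum of a pair. Among families free of overlaps and of short genes, 12 single-copy genes had a median of 4957 FPKM and 42 pairs 5695 FPKM for the sum of both copies, where the 90 separate genes of pairs had a median of 2606. On the midpoint of the deposited confidence interval, a scale less dependent on length, single-copy genes had 2781 and the sums of pairs 3112.

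The shortest genes are on another scale. RPL41A and RPL41B, the genes of the smallest ribosomal protein at 78 bp, were listed at means of 359325 and 388864 FPKM, about 143 times the midpoints of their own deposited intervals. Among genes with no overlap this ratio had a median of 5.65 from 150 bp to under 300 bp, 1.94 from 300 bp to under 600 bp, and 1.35 from 600 bp. Levels of genes of different length are therefore not compared below 300 bp.

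Some of the lowest values came from genes that share their sequence with another feature. The files list 19 ribosomal protein genes that overlap one, mostly a dubious reading frame on the opposite strand. In 6 of them over 85% of the exons were covered (RPL43A, RPL22A, RPL39, RPL36B, RPL28 and RPL33A), and in all 6 the other feature had the higher value. RPL43A gave 64.4 and 57.1 FPKM in wild type against 36.6 and 60.9 in D8A and 78 and 55.3 in D8B. OPI11, on the other strand over 99.3% of its exons, gave 6542 and 5310.5 FPKM in wild type against 3296 and 4741 in D8A and 6303 and 3916 in D8B, and the identical protein's other gene, RPL43B, gave 5123 and 4082 FPKM in wild type against 2594 and 3755 in D8A and 4979 and 3282 in D8B. RPL28, the single gene for the protein altered in cycloheximide-resistant mutants, averaged 581 FPKM and YGL102C across from it 5750. RPL36B averaged 284 and YPL250W-A 6740. No source used here says whether reads were counted by strand, so the values of these genes and of their partners cannot be told apart and the levels of the 6 are uncertain. Their differences between strains were like those of the others: the 19 overlapping genes had a median log2 difference of -0.45 in D8A and -0.05 in D8B, and the other 118 had -0.46 and -0.05.

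**Figure D2:**
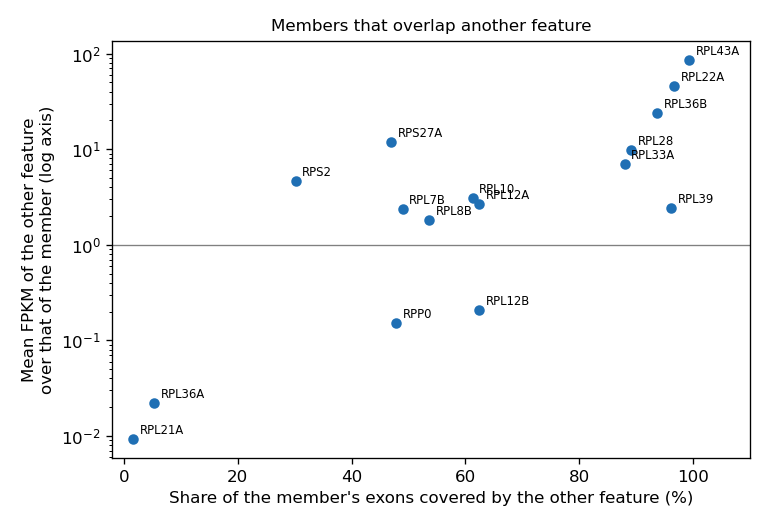
Ribosomal protein genes with another feature on their exons: the share of exons covered (x axis, %) against the mean FPKM of that feature divided by that of the gene (y axis, log axis, line at equal values). The 6 genes with over 85% covered all lie above the line, and RPL43A and RPL22A lie highest.

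Paralogue pairs had reproducible ratios from library to library. In the 51 pairs with both copies of 300 bp or more, the log2 ratio of A over B had a median replicate SD of 0.054 and a median range over the 6 libraries of 0.22, and in 47 pairs the same copy was the higher one in all 6 libraries. The copies were unequal by a median of 0.73 on the log2 scale, or 0.57 in the 42 pairs without an overlap, and 19 of the 51 pairs differed by 2-fold or more. A was the higher copy in 30 pairs and B in 21. With 2 libraries per strain an exact permutation test cannot give a two-sided p below 0.333, so the ratios are given as values with no test.

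**Figure D3:**
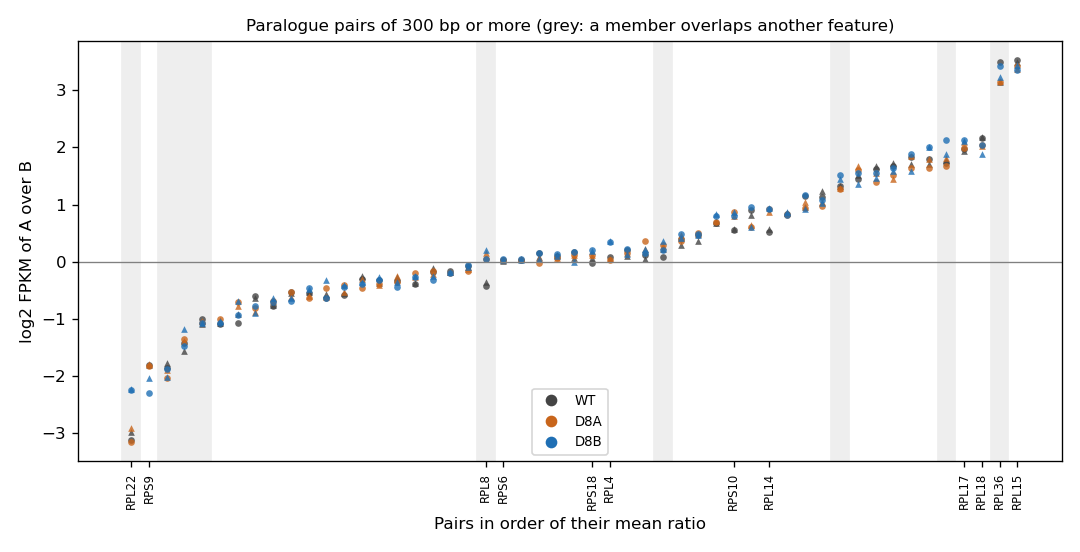
Log2 ratio of the FPKM of copy A over copy B (y axis) for 51 pairs sorted by their mean, with circles for replicate 1 and triangles for replicate 2 and grey bands for pairs in which a copy overlaps another feature. Names are given for pairs described in the text. The 6 points of a pair mostly coincide, with visible splits by strain for RPL22, RPS9, RPL8 and RPL14.

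The most unequal of these pairs was RPL15, of the large subunit. The RPL43 pair, under 300 bp and with RPL43A overlapped, was further apart, with copy B 67.5-fold higher. RPL15A gave 4115 and 3551 FPKM in wild type against 2690.4 and 3189.9 in D8A and 4516 and 3339 in D8B, and RPL15B, with 2 differences in the protein, gave 356 and 312 FPKM in wild type against 251 and 309 in D8A and 439 and 306 in D8B. Copy A was 10.8-fold higher, with log2 ratios between 3.36 and 3.53. In the RPL36 pair, where both copies overlap another feature, copy A was 9.63-fold higher, and in RPL22, with RPL22A overlapped, copy B was 6.89-fold higher. Copy A was 4.15-fold higher for RPL18, whose copies encode the same protein, and 4.11-fold higher for RPL17. The reverse held for RPS9, a protein that lines the mRNA entry of the small subunit, with copy B 3.83-fold higher.

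Among the most equal pairs was RPS6, the protein phosphorylated downstream of TOR, with log2 ratios of 0.03 and 0.01 in wild type against 0.02 and 0.03 in D8A and 0.04 and 0.03 in D8B. RPL8 was also near equality by its mean ratio of -0.06, but only because the strains lay on opposite sides of it. The copies of RPS6 are also nearly identical in sequence, with 99.2% identity of their coding sequences. Of the 50-base stretches of RPS6A, 27.9% occur in no other nuclear coding sequence. Over all pairs, the 11 with under 60% of such unique stretches had a median inequality of 0.16, and the 48 others 0.76. Whether equal values in such pairs come from reads divided between the copies was not tested.

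Among pairs with both copies of 300 bp or more, the 3 whose ratio differed most in each comparison made 6 pairs in all. Of those free of overlaps, RPL14 had the largest difference from wild type. RPL14A (YKL006W, chrXI:431906-432720), whose start lies 906 bp from the insertion in the wild type, gave 9344 and 7250.3 FPKM in wild type against 5534 and 8165 in D8A and 11735 and 7332 in D8B. RPL14B (YHL001W, chrVIII:104277-105091), which differs from it by 1 residue, gave 6529 and 4858 FPKM in wild type against 2937 and 4492 in D8A and 6197 and 3803 in D8B. The log2 ratios were 0.52 and 0.58 in wild type against 0.91 and 0.86 in D8A and 0.92 and 0.95 in D8B, with all 4 null libraries above both wild-type libraries, by 0.34 in D8A and 0.39 in D8B. Relative to the median ribosomal protein gene of the library, RPL14A was higher than in wild type by 0.18 in D8A and 0.23 in D8B, and RPL14B lower by 0.17 and 0.16. As single genes neither passed, with log2 differences of -0.29 ± 0.35 (SE; limma adjusted p = 0.683) for RPL14A and -0.63 ± 0.36 (SE; limma adjusted p = 0.398) for RPL14B in D8A. Since only the wild type carries the insertion, its part cannot be told apart from that of the other strain differences.

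RPL8, a large-subunit protein needed for maturation of ribosomal RNA, differed between strains in which copy was the higher. RPL8A (YHL033C, chrVIII:35255-36025) gave 1306 and 1113 FPKM in wild type against 919 and 1268 in D8A and 1694 and 1254 in D8B. RPL8B (YLL045C, chrXII:47859-48629) gave 1755 and 1429 FPKM in wild type against 891 and 1144 in D8A and 1642 and 1085 in D8B. Copy B was the higher in both wild-type libraries and copy A in all 4 null libraries, with log2 ratios of -0.43 and -0.36 in wild type against 0.05 and 0.15 in D8A and 0.05 and 0.21 in D8B. RPL8B shares 53.7% of its exons with YLL044W on the opposite strand, which gave 3044 and 2755 FPKM in wild type against 1512 and 2139 in D8A and 2965 and 2097 in D8B. Those values were lowest in D8A replicate 1, as were those of RPL8A, RPL8B and every other gene of the group. The part of YLL044W in the ratio was not tested. RPL8A itself had the smallest difference from wild type of all genes in D8A, -0.16 ± 0.29 (SE; limma adjusted p = 0.792), and the largest positive one in D8B, 0.27 ± 0.29 (SE; limma adjusted p = 0.662).

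RPS10, a protein of the small subunit head, also had a like shift in both null strains. RPS10A (YOR293W, chrXV:867098-867852) gave 4952 and 4312 FPKM in wild type against 2654 and 3601 in D8A and 4953 and 3464 in D8B. RPS10B (YMR230W, chrXIII:732414-733141) gave 3359 and 2903 FPKM in wild type against 1457 and 2064 in D8A and 2847 and 1906 in D8B. The log2 ratios were 0.56 and 0.57 in wild type against 0.86 and 0.80 in D8A and 0.80 and 0.86 in D8B, with wild type below every null library and a difference of 0.27 in each strain. The difference of RPS10B from wild type was -0.85 ± 0.31 (SE; limma adjusted p = 0.202) in D8A, the second lowest among genes of every length, and -0.42 ± 0.31 (SE; limma adjusted p = 0.515) in D8B.

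**Figure D4:**
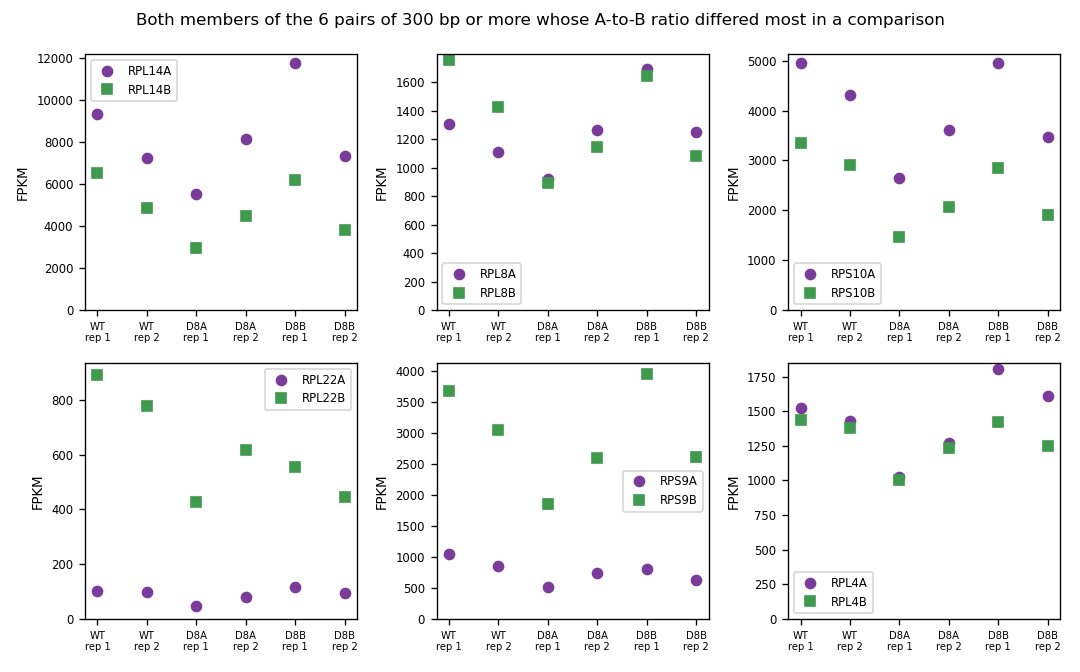
FPKM (y axis, from 0) of both copies of 6 pairs in the 6 libraries (x axis), with circles for copy A and squares for copy B. RPL8B lies above RPL8A in both wild-type libraries and below it in the other 4, RPL4A separates most from RPL4B in D8B, and RPL22B is highest in wild type.

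The RPL22 ratio stood apart in D8B and lay near wild type in D8A. The Rpl22 protein, which yeast can live without, is known to bind the intron of RPL22B and reduce its splicing. RPL22B (YFL034C-A, chrVI:64243-64932) gave 892 and 777 FPKM in wild type against 427 and 617 in D8A and 556 and 444 in D8B. Its 4 null libraries were all below both wild-type libraries, and the D8A and D8B libraries overlapped. Over all features, 26.1% were placed below wild type in D8A and 25.9% in D8B. RPL22A (YLR061W, chrXII:263194-263948) gave 102 and 97.5 FPKM in wild type against 47.4 and 81.7 in D8A and 116 and 94.4 in D8B. This put the log2 ratios at -3.13 and -2.99 in wild type against -3.17 and -2.92 in D8A and -2.26 and -2.24 in D8B. In D8B the ratio was 0.82 above wild type, and in D8A it differed by 0.02. As 96.7% of the exons of RPL22A are covered by BUD28, which gave 5038 and 3974 FPKM in wild type against 2644 and 3736 in D8A and 5647 and 3539.6 in D8B, its level is uncertain. RPL22B overlaps no feature. Its mean was 834 ± 81.5 FPKM (SD, n = 2) in wild type, 522 ± 134 in D8A and 500 ± 78.5 in D8B. The log2 difference from wild type was -0.70 ± 0.27 (SE; limma adjusted p = 0.238) in D8A and -0.74 ± 0.27 (SE; limma adjusted p = 0.191) in D8B, the lowest of the group there. RPL22A had -0.67 ± 0.28 (SE; limma adjusted p = 0.27) in D8A and 0.74 ± 0.28 (SE; limma adjusted p = 0.49) in D8B against D8A, the highest of the group in that comparison. In a fit limited to features of at least 300 bp, RPL22B passed in D8B (limma adjusted p = 0.0437), and RPL22A (0.0474) and RPS10B (0.0323) passed in D8A.

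The RPS9 ratio stood apart in D8B as well, in the opposite direction. RPS9A (YPL081W, chrXVI:404950-406044) gave 1041 and 862 FPKM in wild type against 521 and 742 in D8A and 802 and 635 in D8B. RPS9B (YBR189W, chrII:604508-605508) gave 3674 and 3038 FPKM in wild type against 1860.4 and 2593 in D8A and 3952 and 2612 in D8B. The log2 ratios were -1.82 and -1.82 in wild type against -1.84 and -1.80 in D8A and -2.30 and -2.04 in D8B, which puts both D8B libraries below the 4 others, 0.26 apart from each other. RPS9A had a log2 difference from wild type of -0.41 ± 0.28 (SE; limma adjusted p = 0.477) in D8B.

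RPL4, whose protein lines the exit tunnel of the nascent chain, was another pair in which D8B stood apart. RPL4A (YBR031W, chrII:300166-301254) gave 1522 and 1427 FPKM in wild type against 1025 and 1269 in D8A and 1807 and 1611 in D8B. RPL4B (YDR012W, chrIV:471853-472941) gave 1439 and 1375 FPKM in wild type against 1002 and 1233 in D8A and 1421 and 1248 in D8B. The copies were nearly equal in wild type and D8A, and copy A was the higher in D8B, with log2 ratios of 0.08 and 0.05 in wild type against 0.03 and 0.04 in D8A and 0.35 and 0.37 in D8B. The coding sequences of the copies are 98.9% identical. Only 27.3% of the 50-base stretches of RPL4A occur in no other nuclear coding sequence, so part of the reads could have been assigned to either copy. The log2 difference of RPL4A was 0.21 ± 0.25 (SE; limma adjusted p = 0.702) in D8B against wild type and 0.58 ± 0.25 (SE; limma adjusted p = 0.541) in D8B against D8A.

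Among genes under 300 bp, RPS28B stood out. The Rps28b protein is known to bring about decay of its own mRNA. RPS28B (YLR264W, chrXII:673131-673334, 204 bp) gave 9944 and 7999 FPKM in wild type against 4128 and 5374 in D8A and 7359 and 4362 in D8B. All 4 null libraries were below both wild-type libraries, where 26.1% of all features were placed below in D8A and 25.9% in D8B. Its copy RPS28A (YOR167C, chrXV:648804-649007) gave 16328 and 12548 FPKM in wild type against 7329 and 10698 in D8A and 15919 and 10535 in D8B, with D8B libraries that overlap those of both other strains. The log2 ratios of A over B were 0.72 and 0.65 in wild type against 0.83 and 0.99 in D8A and 1.11 and 1.27 in D8B. The log2 difference of RPS28B from wild type was -0.92 ± 0.34 (SE; limma adjusted p = 0.201) in D8A, the lowest of the group there, and -0.65 ± 0.34 (SE; limma adjusted p = 0.34) in D8B. Relative to the median gene of the group it was -0.45 in D8A and -0.60 in D8B. The A-to-B ratio lay 0.51 above wild type in D8B, a larger difference than that of RPL14.

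**Figure D5:**
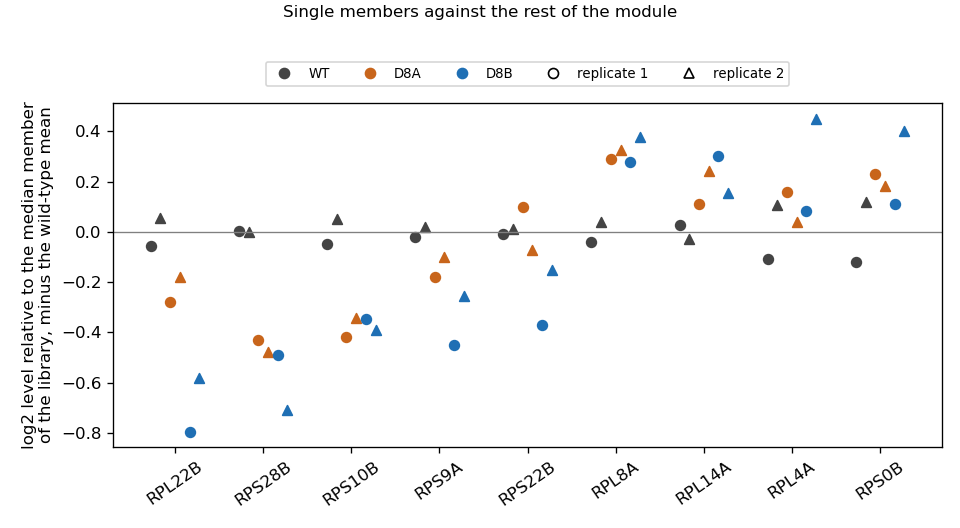
Log2 level of 9 genes relative to the median ribosomal protein gene of the same library, minus the wild-type mean of that value (y axis), by strain (colour) and replicate (shape). RPL22B, RPS28B and RPS10B lie below 0 in all 4 null libraries and RPL8A and RPL14A above 0, while RPL4A and RPS0B spread widely between replicates of D8B.

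At the ends of the order stood a few further genes. In D8A against wild type the small-subunit gene RPS21A, under 300 bp and described with chromosome XI, had -0.82 ± 0.35 (SE; limma adjusted p = 0.28), the third lowest of the group, and RPS25A had -0.68 ± 0.33 (SE; limma adjusted p = 0.329). Between D8B and D8A, RPS21A had 0.61. Nearest to wild type after RPL8A were RPL27B (-0.23), RPL10 (-0.25), whose protein joins the large subunit late, and RPL15B (-0.26). YLR076C on the opposite strand covers 61.3% of the exons of RPL10, and its part was not tested. In D8B against wild type RPS0B, whose protein is needed for late maturation of the small subunit, gave 1589 and 1513 FPKM in wild type against 1132 and 1478 in D8A and 1939 and 1639 in D8B. Its 2 D8B libraries were above, and its 2 D8A libraries below, both wild-type libraries, with 0.20 ± 0.26 (SE; limma adjusted p = 0.732) in D8B against wild type and 0.46 ± 0.26 (SE; limma adjusted p = 0.639) between the null strains. Over all features, 30.0% were placed above wild type in D8B and 26.1% below it in D8A. RPS24A had 0.18 ± 0.30 (SE; limma adjusted p = 0.797) and RPS22B -0.32 ± 0.26 (SE; limma adjusted p = 0.562). The intron of RPS22B holds snR44, which gave 735 and 679 FPKM in wild type against 228 and 357 in D8A and 404 and 315 in D8B. The part of snR44 was not tested. Between D8B and D8A the highest after RPL22A, among genes of 300 bp or more, were RPS26B (0.62), whose protein sits at the mRNA exit, RPS24A (0.58) and RPL4A. The lowest after RPL22B were RPS22B (0.14), RPS14B (0.16), whose splicing is known to be repressed by the Rps14 protein, and RPL10 (0.20).

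Of the group, 5 genes lie on chromosome XI, which the label of the wild type names. RPL17A (YKL180W, chrXI:109269-110129) gave 5685 and 5017 FPKM in wild type against 3606 and 5025 in D8A and 6786 and 4948 in D8B. RPL40B (YKR094C, chrXI:617996-618750) gave 8209 and 6303 FPKM in wild type against 4422 and 5905 in D8A and 9278 and 5810.4 in D8B. The D8B libraries of both lay on either side of the wild-type ones. RPS21A (YKR057W, chrXI:551657-552242, 264 bp) gave 16299.8 and 11827 FPKM in wild type against 6692 and 9283 in D8A and 15378 and 9435 in D8B. RPS27A (YKL156W, chrXI:158613-159212, 249 bp), with 47.0% of its exons under YKL156C-A, gave 3076 and 2628 FPKM in wild type against 1595 and 2145 in D8A and 3140.5 and 2315 in D8B. Both D8A libraries of RPL40B, RPS21A and RPS27A were below both wild-type libraries, as for 86.9% of the whole group and 26.1% of all features. Those of RPL17A and of RPL14A, the other gene on this chromosome, overlapped with wild type. With RPL14A, the 5 had a median log2 difference from wild type of -0.49 in D8A and 0.03 in D8B, and the 132 genes on other chromosomes had -0.46 and -0.05. The genes nearest to a deleted locus were the 2 copies for the same small-subunit protein. RPS18B, 2259 bp from TSA1, gave 3135 and 2614 FPKM in wild type against 1585 and 2193 in D8A and 2920.4 and 2035 in D8B. RPS18A, 4274 bp from TSA2, gave 3086 and 2718 FPKM in wild type against 1725 and 2367 in D8A and 3350.5 and 2325 in D8B. Their log2 ratios of A over B were -0.02 and 0.06 in wild type against 0.12 and 0.11 in D8A and 0.20 and 0.19 in D8B.

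The machinery around the ribosomal protein genes was read from the same fit. Of 11 transcription factors and coregulators of these genes, 0 passed in any comparison, with 3 at an unadjusted p under 0.05 in D8A against wild type, 0 in D8B and 1 between D8B and D8A. Over all features, 18.0%, 19.0% and 9.18% had such a p in these comparisons, and 5.05%, 4.9% and 0.332% passed. Their median log2 difference was 0.41 in D8A and 0.37 in D8B, against -0.01 and 0.06 over all features. SFP1, an activator of ribosome production, gave 16.7 and 21.4 FPKM in wild type against 35.8 and 31.3 in D8A and 19.5 and 31 in D8B, with 0.79 ± 0.26 (SE; limma adjusted p = 0.156) in D8A. IFH1, the coactivator that binds Fhl1, gave 18.4 and 25.2 FPKM in wild type against 30.3 and 31 in D8A and 26.1 and 44.9 in D8B, with 0.65 ± 0.28 (SE; limma adjusted p = 0.267) in D8B. Both D8A libraries of these genes were above both wild-type libraries, as for 25.3% of all features. GCN5, a histone acetyltransferase, gave 27.4 and 24.7 FPKM in wild type against 18 and 26.3 in D8A and 37 and 36 in D8B, with 0.72 ± 0.22 (SE; limma adjusted p = 0.346) in D8B against D8A.

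Of 14 kinases and receptors upstream, none passed, and the medians were 0.08 in D8A and 0.01 in D8B. Of 7 dedicated chaperones and importers tested, none passed, with medians of 0.27 and 0.43. SCH9, a kinase downstream of TOR, gave 22.6 and 31.3 FPKM in wild type against 35.7 and 34.3 in D8A and 16.5 and 27.3 in D8B, with -0.69 ± 0.27 (SE; limma adjusted p = 0.504) between the null strains, and BCY1, the inhibitory subunit of protein kinase A, had -0.56 ± 0.21 (SE; limma adjusted p = 0.205) in D8B against wild type. The importer KAP123 gave 58.4 and 72 FPKM in wild type against 96.5 and 86.6 in D8A and 86.6 and 176 in D8B, with 0.92 ± 0.33 (SE; limma adjusted p = 0.182) in D8B, where the libraries were far apart, and LTV1, which helps mature the small subunit, had 0.58 ± 0.24 (SE; limma adjusted p = 0.241). The unadjusted counts in D8A, in D8B and between them were 0, 1 and 1 for the kinases and receptors and 0, 3 and 0 for the chaperones and importers, where 18.0%, 19.0% and 9.18% of all features had such a p. Of 25 initiation factors none passed, with medians of -0.01 and 0.16 and unadjusted counts of 1, 2 and 1, against the same shares of all features. HCR1, a factor associated with initiation factor eIF3, gave 253 and 236 FPKM in wild type against 229 and 228 in D8A and 404 and 375 in D8B, with 0.67 ± 0.21 (SE; limma adjusted p = 0.134) in D8B and D8B libraries above the 4 others. Over all features, 30.0% had D8B libraries above those of wild type and 19.7% above those of D8A. SUI1, the start-codon selection factor eIF1, gave 2084 and 1909 FPKM in wild type against 996 and 1409 in D8A and 1649 and 1264 in D8B, with -0.75 ± 0.28 (SE; limma adjusted p = 0.215) in D8A. Of 14 elongation and termination factors, ANB1 fell in D8A and no other gene passed in any comparison, with medians of -0.10 and 0.08 and unadjusted counts of 2, 2 and 2. The adjusted call was 1 of 14 genes where 5.05% of all features passed, and the unadjusted shares of all features were 18.0%, 19.0% and 9.18%. ANB1, the hypoxic form of eIF5A, gave 48.2 and 61.7 FPKM in wild type against 7.36 and 11 in D8A and 36.1 and 21.4 in D8B, with -2.47 ± 0.30 (SE; limma adjusted p = 0.00443) in D8A. HYP2, its aerobic form, gave 3543 and 3599.7 FPKM in wild type against 2003 and 2346 in D8A and 2009 and 2137 in D8B, with -0.72 ± 0.25 (SE; limma adjusted p = 0.171) in D8A and -0.79 ± 0.25 (SE; limma adjusted p = 0.132) in D8B, and all 4 null libraries were below both wild-type libraries. Over all features, 26.1% were placed below wild type in D8A and 25.9% in D8B.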

How the data were processed

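Polyadenylated RNA was extracted with the mRNA DIRECT kit and made into libraries by standard Illumina protocols, per the labels' protocols. The submitters' processing notes name Bowtie2 2.1.0, TopHat2 2.0.9, Cufflinks 2.1.1 and build R64 with no role stated. The deposited values are FPKM with confidence bounds, per the file headers. For strand use in counting, no source used here gives a setting.

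From the deposited FPKM, log2(FPKM + 1) was fitted over all 6 libraries with limma 3.58.1 (R 4.3.3, eBayes with a mean trend), 1 mean per strain, for 6925 features with status OK and a mean FPKM of at least 1. The pseudocount understates differences of low genes. Tests were two-sided with Benjamini-Hochberg adjustment over all features and a threshold of 0.05. The fit was also run on simulated data with independent noise for each gene and changes larger than any fitted for the group. That run does not test smaller changes or spread shared between genes. Depth came from interval bounds, which step in whole fragments (85.5% to 89.7% of low bounds whole within a tolerance of 0.02). Bounds under 25 fragments were used, a limit set after the data were seen, and limits of 20 and 40 moved no library's depth by more than 0.129%. Medians over the group and paralogue ratios carry no test. Positions are those of R64, where all 137 genes had the same coordinates in the files and the annotation, and unique stretches were counted as 50-base words of the coding sequences. The genes, the lists and the rule for naming genes were chosen with earlier results of these data known. The rule named called genes, among genes of 300 bp or more the 4 largest differences each way per comparison and the 5 highest and lowest levels, genes on chromosome XI or within 5 kb of an altered locus, among pairs of 300 bp or more the most unequal, the most equal and those whose ratio differed most, the shortest genes, and, of other lists, called genes or the 2 with the largest differences. RPL3, RPS3, RPP0, RPP1A, RPP1B, RPP2A, RPP2B, RPS28A, RPS28B, RPL33A, RPL39, the RPL43 pair, IFH1 and HYP2 were added after their values were seen. A pair that the rule names is not reported here. The alternatives were another pseudocount, no filter, 3 kinds of scaling, interval midpoints, only longer features, robust variances, any status, a replicate block, each library left out, and the group without overlapping genes.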

Additional observations from a re-analysis of the deposited data

Results flagged for a closer look

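RPL4A and RPS0B were flagged because their null strains lay on opposite sides of wild type: both D8A libraries were below and both D8B libraries above both wild-type libraries. The log2 difference of D8B minus D8A was 0.58 for RPL4A (limma adjusted p = 0.541) and 0.46 for RPS0B (limma adjusted p = 0.639), so neither difference passed. The log2 ratio of RPL4A over RPL4B was flagged for the same reason, with 0.32 for D8B minus D8A. That difference was not tested. The D8A side of the ratio was only 0.03 below wild type.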

How the results depend on the processing

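Of 164 recomputed medians and counts, 151 stayed within the limits set for them. Some medians could not change, such as that of D8A against wild type without a D8B library. The limits were also wide: the median of -0.05 in D8B counted as within them at -0.32 and at 0.21. The count is therefore no measure of how stable the results are. Quantile normalization, which forces all libraries to 1 distribution, gave medians of -0.13 in D8A against wild type and 0.092 between D8B and D8A, a large minus small subunit difference of -0.0015 in D8A, 1 called gene in D8A (RPS10B) and 2 in D8B (RPL22B and RPS28B). Fitting only features of 300 bp or more, so with fewer features tested, called 2 genes in D8A and 1 in D8B. Centring each library on the median ribosomal protein gene, an alternative chosen after seeing the data, removes the common part by construction and gave medians of 0.0079 in D8A and -0.0014 between the null strains. Leaving out overlapping genes, also chosen after seeing the data, gave a median inequality of pairs of 0.57. Leaving out single libraries gave 0 to 1 called genes in D8A (RPL22A without D8A replicate 2), a large minus small subunit difference of 0.00037 to 0.036 in D8A, and medians of -0.68 to -0.24 in D8A, -0.32 to 0.21 in D8B and 0.15 to 0.70 between D8B and D8A.

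Signs of 26 differences of single genes reversed, none of them past the threshold before or after. With centring on the group, RPL15B, RPL10, RPL27B, RPL8A and RPL14A had 0.21, 0.22, 0.23, 0.31 and 0.18 in D8A against wild type, and RPS22B, RPS14B and RPL10 had -0.28, -0.26 and -0.22 in D8B against D8A. With quantile normalization, RPL10, RPL27B, RPL8A and RPL14A had 0.056, 0.084, 0.086 and 0.15 in D8A against wild type, and RPS22B, RPS14B and RPL10 had -0.20, -0.18 and -0.12 in D8B against D8A. With single libraries left out, RPL8A ranged from -0.39 to 0.073 in D8A, RPS24A and RPL14A from -0.044 to 0.41 and -0.17 to 0.51 in D8B, and RPL22B, RPS22B, RPS14B and RPL10 from -0.31 to 0.22, -0.019 to 0.29, -0.11 to 0.43 and -0.016 to 0.41 in D8B against D8A. The cause of these differences was not tested.

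Replicate numbers did not pair the libraries in the same direction throughout. Deviations of same-numbered libraries from their strain means correlated at -0.15 (wild type and D8A), 0.33 (wild type and D8B) and -0.25 (D8A and D8B). A replicate effect shared by wild type and D8B was not tested. With the replicate number as a block, 0 genes of the group were called in each of the 3 comparisons, and the median in D8A was -0.46. Depth limits RPL22A most, with 37.0 fragments in 1 library.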
